A study of Mus musculus with 22 samples.

Results

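The extracellular matrix is the network of secreted proteins outside and between cells, and its genes were followed here in the nucleus accumbens of mice. A gene counted as a member when its symbol was Col, Lama, Lamb or Lamc followed by a digit, or was on a fixed list of matrix proteoglycans, fibulins, nidogens and collagen-modifying enzymes, and when its mean level over all libraries was at least 0.5 CPM (counts on genes scaled to a common library size). Of the 24061 genes in the count table, 75 symbols fitted the naming rule and 69 of them reached that level. The level minimum used the mean over all 22 libraries and no difference between groups, but the members were chosen with earlier results of these data known. The members were 11 fibrillar collagen chains, 7 collagen chains of basement membranes, 22 other collagen chains, 11 laminin chains, 4 genes for nidogens, perlecan and agrin, 6 small proteoglycans, fibulins and Sparc, 7 enzymes and chaperones, and Col4a3bp. That gene carries a collagen symbol because its product binds a collagen chain, but it encodes a ceramide transporter of the cytoplasm and is described on its own.

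The accumbens, a reward region of the ventral striatum, was sampled as bulk tissue from male C57BL/6J mice that were 7 to 9 weeks old and conventionally raised. One group of 6 libraries came from mice that drank water, had a normal microbiome and received saline, and 5 libraries came from such mice given morphine at 20 mg per kg a day for 7 days. Another 6 libraries came from saline-treated mice whose gut microbiome had been depleted with nonabsorbable antibiotics, and 5 from antibiotic-treated mice given the same morphine dose. The labels name neither the antibiotics nor the route of either drug, and titles only number the samples. Nothing in the labels says that each number is a separate animal, so the p-values cover the spread among these libraries, which may be technical.

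Collagens are built from chains that fold into a triple helix inside the endoplasmic reticulum, where prolyl and lysyl hydroxylases modify them and the chaperone Serpinh1 (also called Hsp47) holds them folded. After secretion, proteases trim the ends of fibrillar procollagens, with Pcolce and Pcolce2 as enhancers of that step, and the chains assemble into fibrils or sheets. In the brain the matrix proper is poor in fibrils: most collagen IV, laminin, nidogen and perlecan lies in the basement membrane around blood vessels, while fibrillar collagens are made mainly by fibroblasts of the meninges and of larger vessels.

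Libraries held 11789713 to 19755139 counts, of which 9357299 to 15330947 were on genes, so a member at 0.5 CPM rests on few reads. Striatal marker genes such as Penk (704.7 to 1629 CPM) and Drd1a (138.0 to 318.9 CPM) were abundant in every library. Summed markers of cortical and septal neurons varied widely, from 473 to 2579 CPM (median 898). They were highest in library 5 of the antibiotic mice given saline (2579 CPM) and library 4 of the water mice given morphine (2112 CPM). Summed striatal markers were lowest in the first of these (5962 CPM). Group medians of the cortical and septal sum were 901 CPM (water, saline), 565 (water, morphine), 916 (antibiotics, saline) and 1390 (antibiotics, morphine). The sum ran from 736 to 1811 CPM in antibiotic mice given morphine and from 473 to 2112 in water mice given morphine. Between these groups, 17 of 20 such markers were higher and 3 lower in antibiotic mice, none at an adjusted p under 0.05. The part of such neurons in the members' changes was not tested. Markers of the choroid plexus were scarce, and Ttr, its defining transcript, lay between 0 and 1.89 CPM. Library 6 of the antibiotic mice given saline had the highest Malat1 (2462 CPM), and library 1 of that group the highest summed level of 25 fibroblast markers that are no members (363 CPM, against 210 to 277 in the other 21 libraries). The slope of a library's gene levels on transcript length ran from -0.0781 to -0.0111 in water mice given saline. In water mice given morphine it ran from 0.0280 to 0.0468, and in antibiotic mice given morphine from 0.0255 to 0.0550. Antibiotic mice given saline had -0.0532 to 0.0479, where library 6 was the highest and the next had -0.0082. Members were long: 58 of 68 exceeded the median length of all genes tested (5612 against 3259 nucleotides at the median). In bulk tissue, fewer cells of a type and less RNA per cell cannot be told apart.

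Per length of transcript, Sparc stood first among the members, with a mean of 183 CPM per kb. Sparc encodes a secreted glycoprotein that binds collagen. Col6a1, a chain of the beaded filaments of collagen VI, followed with 66.6 CPM per kb, and Agrn, which encodes the heparan sulfate proteoglycan agrin, with 31.6 CPM per kb. These 3 genes together held a large part of the members' counts: Sparc 22.5% ± 5.07, Col6a1 14.8% ± 2.23 and Agrn 12.5% ± 1.07 of the summed CPM of the members (SD, n = 22). P4ha1, the catalytic chain of a prolyl hydroxylase, had 12.9 CPM per kb, the transmembrane collagen gene Col25a1 11.8 and the laminin chain gene Lamb1 10.7. At the other end, the basement membrane chain gene Col4a3 had 0.0741 CPM per kb, and it was the only member left out of the tests by the filter on low counts. Its mean of 0.633 CPM and that of Col13a1 (0.775 CPM) lay just inside the minimum, while Lum (0.499 CPM) and Col4a4 (0.424 CPM) lay just outside.

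**Figure D1:**
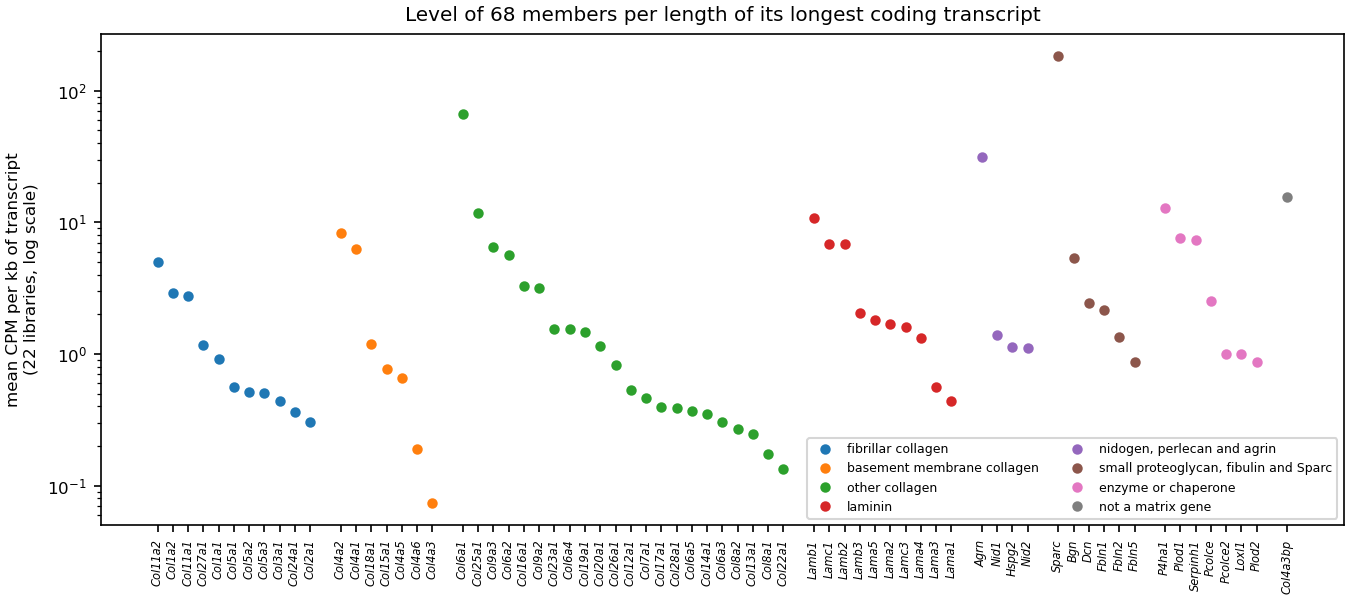
Mean level of 68 of the 69 members over all 22 libraries in CPM per kb of its longest coding transcript (log axis), grouped and coloured by role. Sparc (183), Col6a1 (66.6) and Agrn (31.6) stand above the rest, and Col4a3 (0.0741) is lowest.

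Levels of members scattered more within groups than those of other genes. The median SD of log2 CPM within groups was 0.264 over the members and 0.149 over all genes tested. These medians were not matched for level, so the difference need not be a trait of matrix genes. Sparc itself varied widely, from 270 to 523 CPM in the 6 libraries of water mice given saline, with a within-group SD of 0.457. The laminin chain gene Lamc1 was among the steadiest members (0.0886), and Col4a3bp was the steadiest (0.0805).

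The 4 groups gave 4 simple comparisons and the test of whether morphine acted differently in water and in antibiotic mice. The comparisons share groups and are not independent of each other. In water mice, 4 of 68 tested members rose with morphine and none fell, which is 5.88% of them against 6.58% of all 14564 genes. By direction, 3.91% of all genes rose and 2.67% fell in that comparison. In antibiotic mice, 4 members rose and 4 fell with morphine, 11.8% of the members against 13.0% of all genes (6.43% higher, 6.62% lower). Between antibiotic and water mice given saline, 3 members rose with antibiotics and none fell, 4.41% against 1.41% of all genes (0.542% higher, 0.865% lower). Between antibiotic and water mice that both received morphine, 6 members were higher and 6 lower in antibiotic mice, 17.6% against 18.0% of all genes (8.42% higher, 9.58% lower). The difference between both morphine changes passed for 2 members, 2.94% against 0.467% of all genes (0.22% higher, 0.247% lower). In 3 of the 5 comparisons the members' share was therefore near that of all genes, and the small counts in the other 2 rest on 3 and 2 genes. The median log2 change of the members was 0.105, 0.067, 0.070, -0.031 and -0.091 in that order, beside medians from -0.005 to 0.004 over all genes. Without Col4a3bp the counts were 3 and 0 with morphine in water mice, 3 and 4 with morphine in antibiotic mice, and 5 and 6 between both morphine groups. With the length slope of each library as a covariate, the counts were 0 with morphine in water mice (also 0 of all genes, the slopes of these groups not overlapping), 1 with morphine in antibiotic mice (Serpinh1), 0 with antibiotics under saline and 13 between both morphine groups. Without the 2 libraries highest in Malat1, no member passed with antibiotics under saline, and between both morphine groups Col3a1, Col14a1 and Col24a1 were among the members that no longer passed (adjusted p = 0.0631, 0.0664 and 0.0775).

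**Figure D2:**
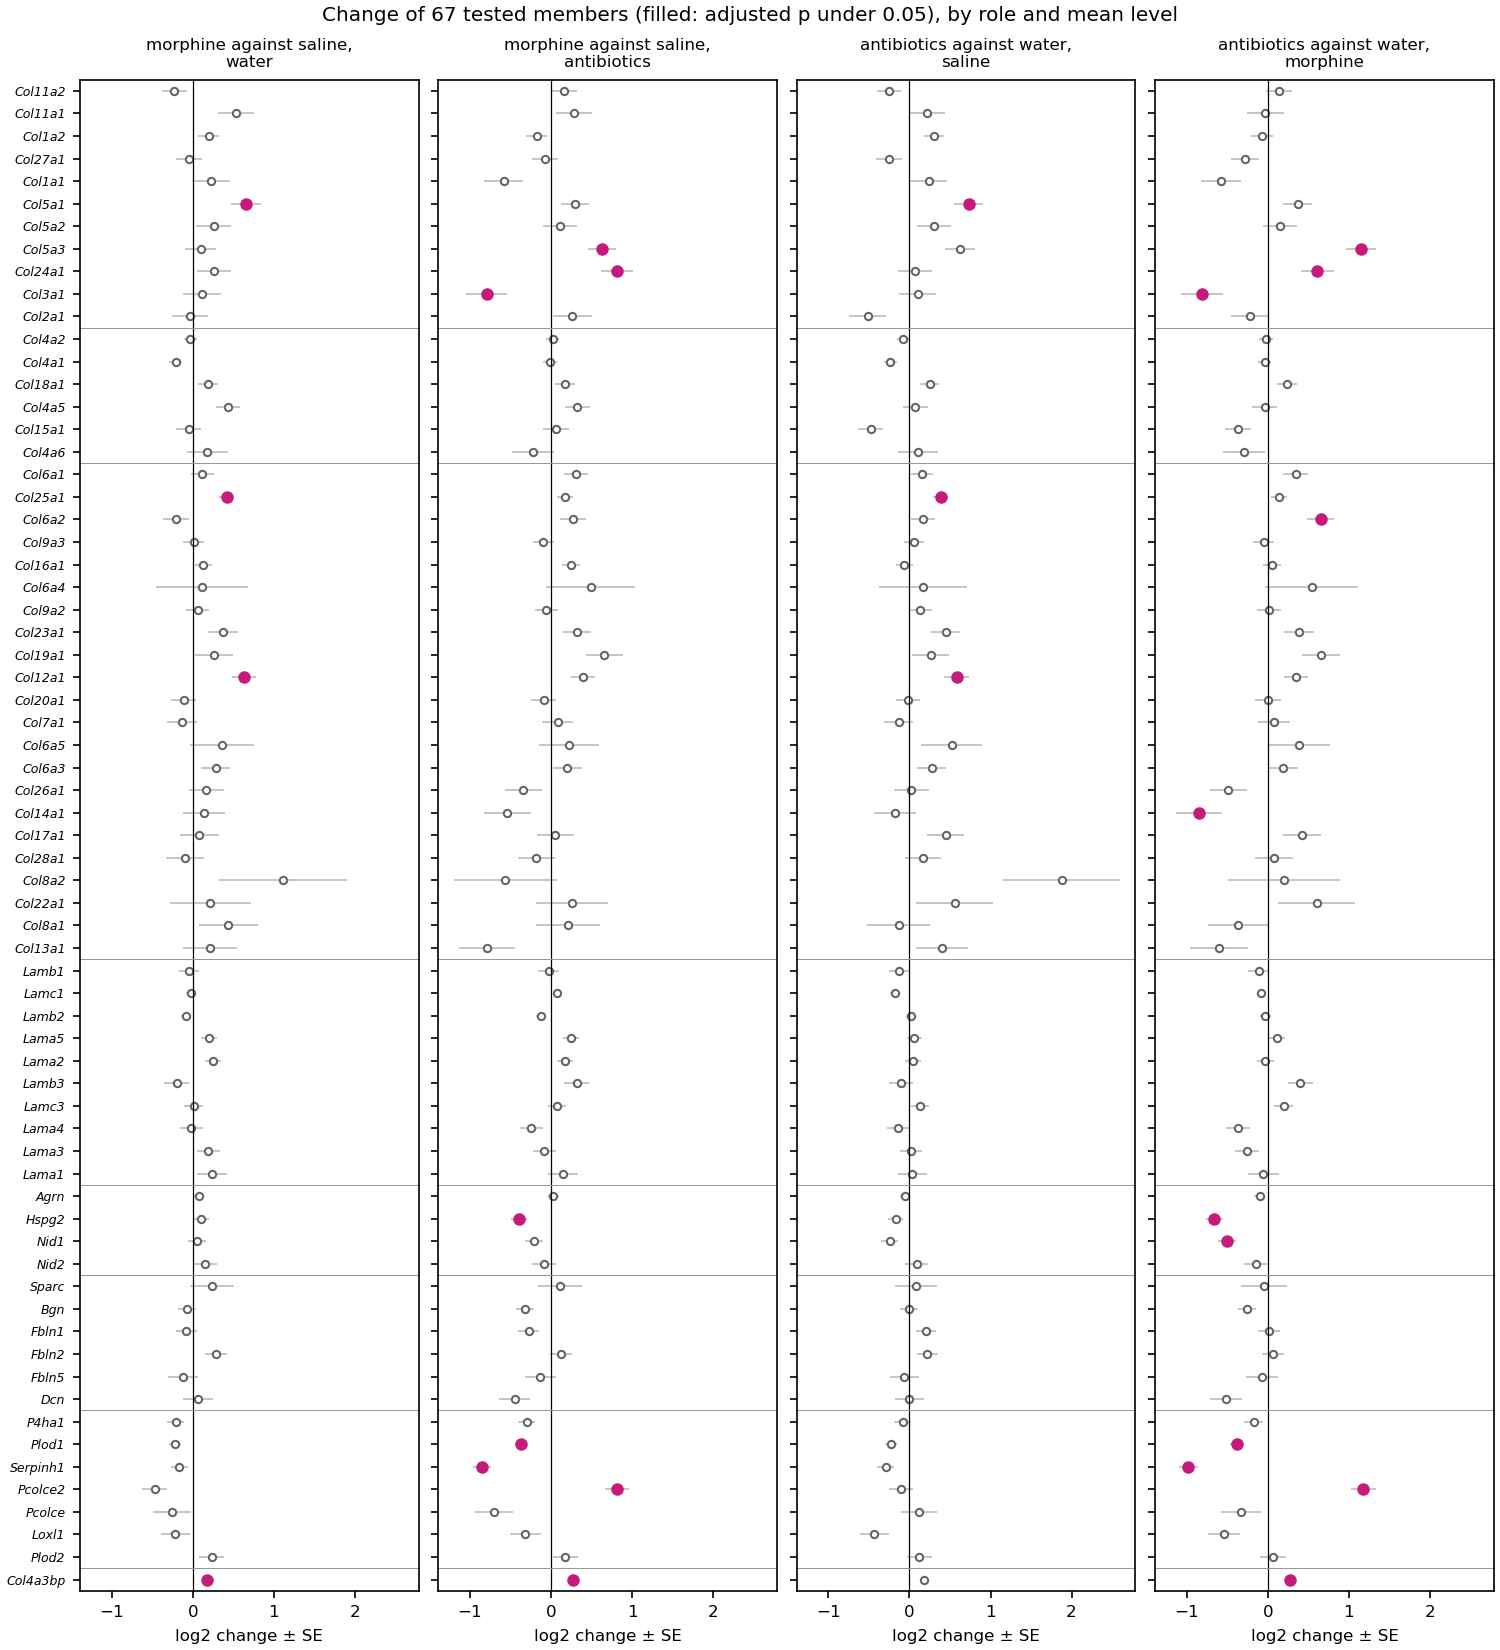
Log2 change with its standard error for 67 of the 68 tested members in the 4 simple comparisons, ordered by role and mean level. Filled points mark adjusted p under 0.05; most members lie near 0, and the filled points of the enzyme class and of Hspg2 fall to the left in the 2 comparisons that involve antibiotic mice given morphine, apart from Pcolce2.

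Among the enzymes and chaperones of collagen processing, Serpinh1, Pcolce2 and Plod1 passed. Serpinh1 had 7.95, 10.5, 6.89, 10.3 and 11.2 CPM in antibiotic mice given morphine. In water mice given morphine it had 16.4, 18.2, 19.5, 20.7 and 17.8 CPM, in antibiotic mice given saline 14.1 to 18.3 (median 17.4), and in water mice given saline 17.9 to 25.6 (median 20.2). All 5 libraries of antibiotic mice given morphine lay under every other library. Serpinh1 fell by 0.98 ± 0.12 (SE, log2 scale) against water mice given morphine (adjusted p = 5.96e-06, edgeR quasi-likelihood test with Benjamini-Hochberg adjustment, as for all adjusted p-values here), a 1.98-fold lower level. Against antibiotic mice given saline it fell by 0.85 ± 0.12 (adjusted p = 0.000141). In water mice the morphine change of Serpinh1 was -0.16 ± 0.11 (adjusted p = 0.385), and between the saline groups the change with antibiotics was -0.29 ± 0.10 (adjusted p = 0.149). The morphine change in antibiotic mice was lower than that in water mice by 0.69 ± 0.16 on the log2 scale (adjusted p = 0.0480), a call that was lost in 18 of 22 fits that left out 1 library (adjusted p up to 0.115).

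Pcolce2, the enhancer of procollagen trimming, went the other way. Its levels in antibiotic mice given morphine were 7.32, 6.12, 7.68, 5.82 and 7.57 CPM. They were 3.16, 2.84, 3.65, 2.19 and 3.39 CPM in water mice given morphine, 3.05 to 5.18 (median 3.74) in antibiotic mice given saline and 3.51 to 5.46 (median 4.10) in water mice given saline. The antibiotic mice given morphine stood above all other libraries. Pcolce2 rose by 1.18 ± 0.16 against water mice given morphine (adjusted p = 2.05e-05) and by 0.82 ± 0.15 against antibiotic mice given saline (adjusted p = 0.00111). In water mice its morphine change was -0.47 ± 0.16 (adjusted p = 0.0725). The morphine changes differed by 1.29 ± 0.22 between antibiotic and water mice (adjusted p = 0.00992), and this call held in all 22 fits that left out 1 library. It was lost with the replicate number as a block.

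Plod1, a lysyl hydroxylase that prepares collagen for crosslinks, had 16.7, 18.7, 18.9, 20.0 and 21.1 CPM in antibiotic mice given morphine. It had 22.4, 24.2, 22.9, 24.7 and 30.3 CPM in water mice given morphine and 22.1 to 26.9 (median 24.6) in antibiotic mice given saline, and neither range overlaps with that of the antibiotic mice given morphine. Plod1 fell by 0.38 ± 0.08 against water mice given morphine (adjusted p = 0.00209) and by 0.37 ± 0.08 against antibiotic mice given saline (adjusted p = 0.00360). P4ha1, the most abundant enzyme of the class, did not pass in any comparison; its change in antibiotic mice given morphine against saline was -0.30 ± 0.11 (adjusted p = 0.0722). Among 30 tested genes of collagen processing that are no members, Calr, an endoplasmic reticulum chaperone, and Pdia4, a disulfide isomerase, fell with morphine in antibiotic mice (by 0.34 ± 0.05 with adjusted p = 0.000325, and by 0.47 ± 0.10 with adjusted p = 0.00279), and none rose. These 2 of 30 are near the 6.62% of all genes that fell in that comparison. Between both morphine groups, Calr and Pdia4 were lower in antibiotic mice (-0.37 ± 0.05 with adjusted p = 5.48e-05, and -0.39 ± 0.10 with adjusted p = 0.00723), while Bmp1, the protease that Pcolce2 assists, and P4ha2, another prolyl hydroxylase chain, were higher (0.42 ± 0.09 with adjusted p = 0.00187, and 0.34 ± 0.11 with adjusted p = 0.0333). These 4 of 30 were not above the 18.0% of all genes that passed there.

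**Figure D3:**
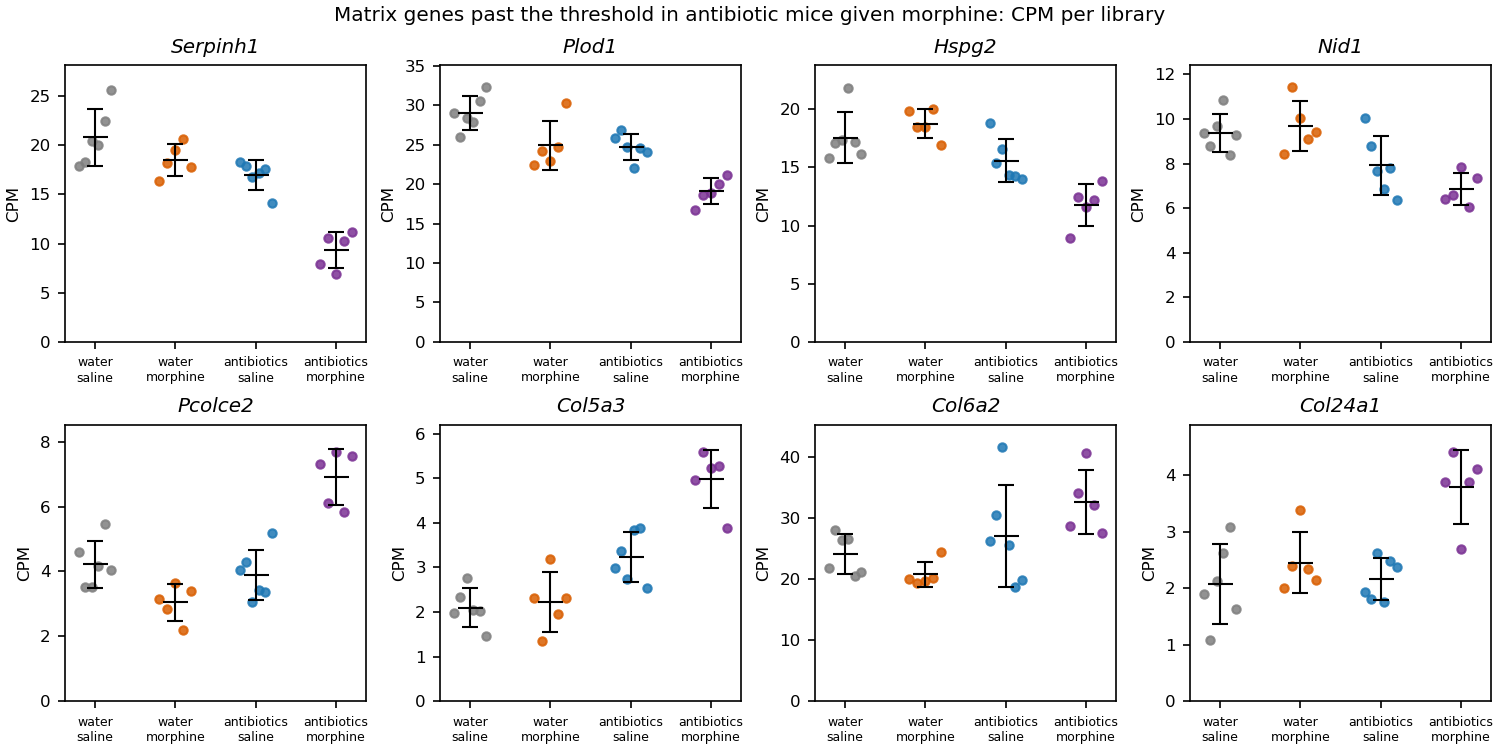
CPM per library for 8 matrix genes in the 4 groups, with each group's mean and SD (n = 6, 5, 6 and 5). The 5 libraries of antibiotic mice given morphine lie below all libraries of water mice given morphine in Serpinh1, Plod1, Hspg2 and Nid1, and above them in Pcolce2, Col5a3 and Col6a2.

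Promoters of 4 genes are shown because these had the smallest p-values among the matrix members between both morphine groups, with 2 that fell (Serpinh1, Hspg2) and 2 that rose (Pcolce2, Col5a3). RefSeq promoter windows (GRCm38.p6) were found for 49 of the 69 members, and the part from 250 to 51 bases before each start, 200 bases on the gene's strand, is printed 5′ to 3′. Serpinh1 lies on the minus strand at chr7:99353290-99353489, Hspg2 on the plus strand at chr4:137468553-137468752, Pcolce2 on the plus strand at chr9:95637378-95637577 and Col5a3 on the minus strand at chr9:20815118-20815317. Capitals mark matches, on either strand, to any of 6 motifs.
Serpinh1: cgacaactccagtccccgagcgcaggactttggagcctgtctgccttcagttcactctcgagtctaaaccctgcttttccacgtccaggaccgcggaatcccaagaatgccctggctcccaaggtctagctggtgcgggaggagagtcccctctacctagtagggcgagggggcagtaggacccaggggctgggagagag
Hspg2: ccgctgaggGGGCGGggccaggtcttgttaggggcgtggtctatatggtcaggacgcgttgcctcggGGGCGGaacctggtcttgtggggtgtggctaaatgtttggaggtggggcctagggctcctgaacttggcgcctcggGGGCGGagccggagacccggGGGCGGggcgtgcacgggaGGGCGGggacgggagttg
Pcolce2: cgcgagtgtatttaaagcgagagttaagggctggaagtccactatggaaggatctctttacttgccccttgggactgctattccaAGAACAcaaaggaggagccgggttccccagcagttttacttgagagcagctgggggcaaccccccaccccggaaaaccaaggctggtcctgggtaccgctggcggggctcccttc
Col5a3: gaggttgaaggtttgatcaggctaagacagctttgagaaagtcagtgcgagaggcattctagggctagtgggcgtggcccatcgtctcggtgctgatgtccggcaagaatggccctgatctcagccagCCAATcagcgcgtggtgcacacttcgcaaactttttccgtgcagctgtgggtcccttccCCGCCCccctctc

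The motifs searched in these windows were the GC box GGGCGG (held by 24.6% of all 32851 windows of that length in the RefSeq table), the CCAAT box CCAAT (28.4%), the TATA box TATAAA (9.1%), the core of a heat shock element GAANNTTC (5.2%), a half-site of the glucocorticoid receptor AGAACA (13.2%) and the AP-1 site TGANTCA (5.6%), and no matches overlapped. The Serpinh1 window held none of them. The Hspg2 window held 5 GC boxes, whose first bases lie 241, 183, 107, 87 and 68 bases before the start. The Pcolce2 window held 1 glucocorticoid receptor half-site, 165 bases before the start, and the Col5a3 window a CCAAT box and a GC box, 122 and 63 bases before it. A match describes these letters and is neither a shown binding site nor a cause.

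Among basement membrane genes, Hspg2 and Nid1 fell and the more abundant members did not pass. Hspg2 encodes perlecan, the heparan sulfate proteoglycan of vascular basement membranes. Its levels were 8.95, 12.5, 11.6, 12.2 and 13.8 CPM in antibiotic mice given morphine and 19.9, 18.5, 18.5, 20.0 and 17.0 CPM in water mice given morphine. It ranged from 14.01 to 18.8 CPM (median 14.9) in antibiotic mice given saline and from 15.8 to 21.8 (median 17.1) in water mice given saline, so the antibiotic mice given morphine lay below every other library. Hspg2 fell by 0.66 ± 0.10 against water mice given morphine (adjusted p = 0.000139) and by 0.39 ± 0.10 against antibiotic mice given saline (adjusted p = 0.0143). The difference between both morphine changes was -0.49 ± 0.14 and did not pass (adjusted p = 0.134).

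Nid1 encodes nidogen 1, which links the laminin and collagen IV networks. Its levels were 6.42, 6.59, 7.84, 6.06 and 7.35 CPM in antibiotic mice given morphine and 8.41, 11.4, 10.03, 9.12 and 9.43 CPM in water mice given morphine, with no overlap. Nid1 fell by 0.50 ± 0.12 between these groups (adjusted p = 0.00363), while against antibiotic mice given saline (6.37 to 10.03 CPM, median 7.73) its change was -0.21 ± 0.11 (adjusted p = 0.242). Agrn, the most abundant of these genes, changed by -0.10 ± 0.07 between both morphine groups (adjusted p = 0.319). The chains Col4a1 and Col4a2, which form the common collagen IV trimer, changed by -0.04 ± 0.08 and -0.02 ± 0.08 there (adjusted p = 0.792 and 0.884). RefSeq places the starts of Col4a1 and Col4a2 21 bases apart on opposite strands, and whether the authors' counting kept strands apart is not given in the sources used here. Under morphine, the ratio of Col4a2 to Col4a1 CPM was 1.33 ± 0.106 with water and 1.35 ± 0.030 with antibiotics (SD, 5 libraries each). Under saline, it was 1.18 ± 0.064 with water and 1.32 ± 0.184 with antibiotics (SD, 6 libraries each). The medians of these saline groups were 1.15 and 1.24. Library 6 of the antibiotic mice given saline, the highest in Malat1, had the highest ratio (1.663).

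The laminin chain genes with the most reads, Lamb1 and Lamc1 (mean 61.9 and 52.1 CPM, not scaled by length), encode a beta and a gamma chain of the laminins of vascular basement membranes, and neither passed in any comparison. Lamb1 changed by -0.11 ± 0.13 between both morphine groups (adjusted p = 0.607). Lamc1 had 51.3 to 57.5 CPM (median 56.2) in water mice given saline and 42.8 to 51.5 CPM (median 49.1) in antibiotic mice given saline. These ranges overlap slightly, and the change was -0.18 ± 0.05 (adjusted p = 0.0782). The members Col6a3, Col5a2, Pcolce and Col1a1 were not among the genes that the rule for named genes selects; they are described as partner chains or were chosen after their values were seen.

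Genes that receive or surround the basement membrane are background here, and the lists were chosen with earlier results in view. Of 21 tested receptors of collagens and laminins, 5 fell and none rose between both morphine groups. They included Itgb5 (-0.40 ± 0.06, adjusted p = 5.45e-05), an integrin chain, and Lrp4 (-0.54 ± 0.10, adjusted p = 0.000791), the agrin receptor. In that comparison 18.0% of all genes passed, 8.42% higher and 9.58% lower. Endothelial markers showed 9 lower and 3 higher of 26, and pericyte and smooth muscle markers 2 lower and 0 higher of 17. Summed endothelial markers ran from 727 to 817 CPM in antibiotic mice given morphine, from 765 to 859 in water mice given morphine and from 856 to 952 in water mice given saline. Summed pericyte and smooth muscle markers ran from 243 to 291, 263 to 335 and 308 to 335 CPM in the same order. In antibiotic mice given saline, endothelial markers ran from 760 to 891 CPM and pericyte and smooth muscle markers from 250 to 352 CPM. The part of these cells in the lower Hspg2 and Nid1 was not tested.

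Among fibrillar collagens, Col5a3 and Col24a1 were higher in antibiotic mice given morphine, Col5a1 was lowest in water mice given saline, and Col3a1 was lower in antibiotic mice given morphine. Col5a3 encodes a minor chain of collagen V, which regulates the width of collagen fibrils. Its levels were 4.97, 5.58, 5.23, 5.28 and 3.89 CPM in antibiotic mice given morphine and 2.31, 1.35, 3.19, 1.96 and 2.32 CPM in water mice given morphine, with no overlap. Antibiotic mice given saline lay between at 2.55 to 3.89 CPM (median 3.18), above the 1.46 to 2.76 (median 2.03) of water mice given saline for the most part. Col5a3 rose by 1.15 ± 0.18 against water mice given morphine (adjusted p = 0.000150) and by 0.63 ± 0.17 against antibiotic mice given saline (adjusted p = 0.0184). Col24a1, a minor fibrillar chain, had 3.89, 4.42, 2.69, 3.88 and 4.11 CPM in antibiotic mice given morphine, above all 6 libraries of antibiotic mice given saline (1.76 to 2.63, median 2.15). Col24a1 rose by 0.81 ± 0.20 there (adjusted p = 0.0109) and by 0.61 ± 0.20 against water mice given morphine (adjusted p = 0.0392), where 1 library of each group overlaps with the other and the call was lost in 8 of 10 fits that left out 1 library.

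Col5a1, the main chain of collagen V, had 2.01 to 3.97 CPM (median 3.07) in water mice given saline and 4.52, 4.71, 5.92, 3.69 and 4.97 CPM in water mice given morphine. In antibiotic mice it had 4.16 to 6.33 CPM (median 4.93) after saline and 4.43, 8.45, 5.07, 6.29 and 6.49 CPM after morphine. The water mice given saline thus had the lowest levels, apart from an overlap with 1 library of the water mice given morphine. Col5a1 rose by 0.66 ± 0.18 with morphine in water mice (adjusted p = 0.0332) and by 0.73 ± 0.18 with antibiotics in mice given saline (adjusted p = 0.0398), and these 2 comparisons share the water mice given saline. Leaving out 1 library lost the first call in 7 of 11 fits and the second in 8 of 12. Col5a2, which joins Col5a1 in the same trimers, changed by 0.26 ± 0.21 and 0.30 ± 0.21 (adjusted p = 0.511 and 0.485).

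Col3a1, a chain of the interstitial fibrils made by fibroblasts, had 1.27, 1.94, 1.504, 1.40 and 1.80 CPM in antibiotic mice given morphine. It had 3.05, 3.29, 2.41, 2.49 and 2.81 CPM in water mice given morphine, with no overlap, and fell by 0.81 ± 0.26 between these groups (adjusted p = 0.0298). That call was lost in 6 of 10 fits that left out 1 library (adjusted p up to 0.0742). Against antibiotic mice given saline (1.45 to 5.498 CPM, median 2.28) Col3a1 fell by 0.79 ± 0.25 (adjusted p = 0.0386), but without library 1 of that group, which had the 5.498 CPM, the change was -0.48 ± 0.20 (adjusted p = 0.139). The same library was the highest of its group in Col1a1 (13.0 CPM against 3.40 to 6.09 in the other 5 libraries) and Pcolce (8.59 CPM against 3.01 to 6.25), and in the fibroblast markers Slc6a13 (11.7 CPM against 3.03 to 5.15) and Slc22a6 (7.43 CPM against 0.726 to 1.56). Of the 25 fibroblast markers 19 were tested; the median change with morphine in antibiotic mice was -0.463, with 2 lower and 0 higher, and between both morphine groups 2 were lower and 0 higher. These 2 of 19 are somewhat above the 6.62% and close to the 9.58% of all genes that were lower in these comparisons. In either direction, 13.0% and 18.0% of all genes passed. Summed, these markers ran from 226 to 363 CPM in antibiotic mice given saline, 210 to 262 in antibiotic mice given morphine, 254 to 277 in water mice given morphine and 236 to 258 in water mice given saline. Their part in the lower Col3a1 was not tested.

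**Figure D4:**
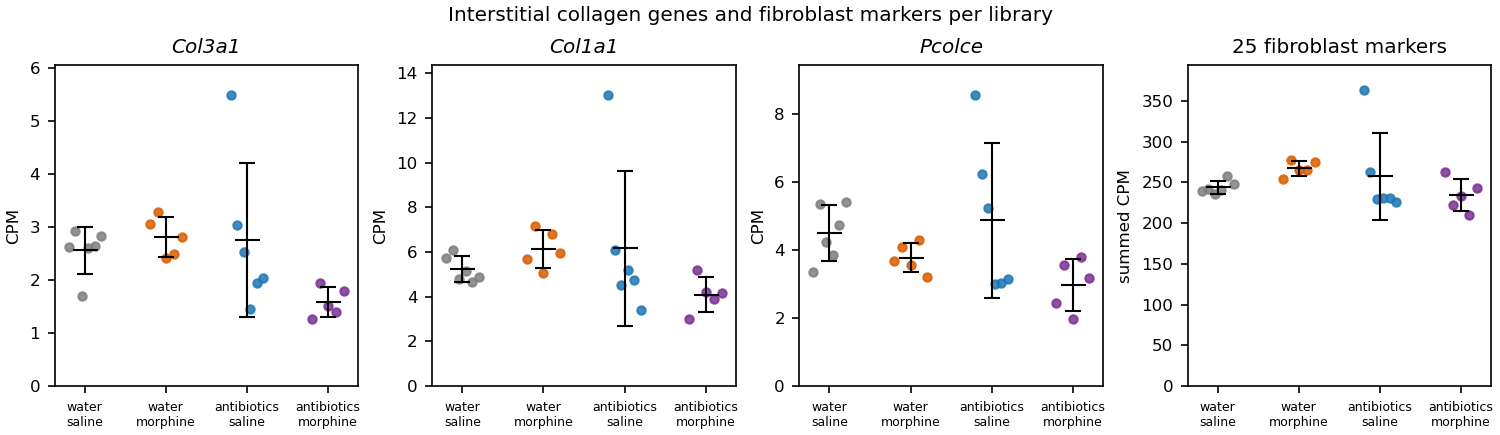
CPM per library of Col3a1, Col1a1 and Pcolce, and the summed CPM of 25 fibroblast markers that are no members, with each group's mean and SD (n = 6, 5, 6 and 5). Library 1 of the antibiotic mice given saline is the highest point of every panel (5.498, 13.0, 8.59 and 363 CPM).

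Other collagens gave 2 patterns: Col25a1 and Col12a1 were lowest in water mice given saline, and Col6a2 and Col14a1 differed between both morphine groups. Col25a1 encodes a transmembrane collagen of neurons. Its levels were 52.8 to 69.8 CPM (median 62.6) in water mice given saline and 92.5, 80.7, 80.3, 76.1 and 86.8 CPM in water mice given morphine, with no overlap. Col25a1 rose by 0.42 ± 0.10 (adjusted p = 0.0130). Antibiotic mice given saline had 64.5 to 98.5 CPM (median 83.3), which overlaps with water mice given saline, and Col25a1 rose there by 0.39 ± 0.09 (adjusted p = 0.0376). Col12a1, a collagen that sits on the surface of fibrils, had 2.98 to 5.52 CPM (median 3.78) in water mice given saline and 5.47, 6.88, 8.27, 5.503 and 5.71 CPM in water mice given morphine. These groups overlap slightly. Col12a1 rose by 0.63 ± 0.15 with morphine in water mice (adjusted p = 0.0162) and by 0.58 ± 0.15 with antibiotics in mice given saline (adjusted p = 0.0492). Calls against water mice given saline were fragile under antibiotics: leaving out 1 library lost Col25a1 in 10 of 12 fits and Col12a1 in 9 of 12. With morphine in water mice, both calls held in all 11 such fits. Both were lost with the length slope as a covariate, and Col25a1 also with the replicate number as a block.

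**Figure D5:**
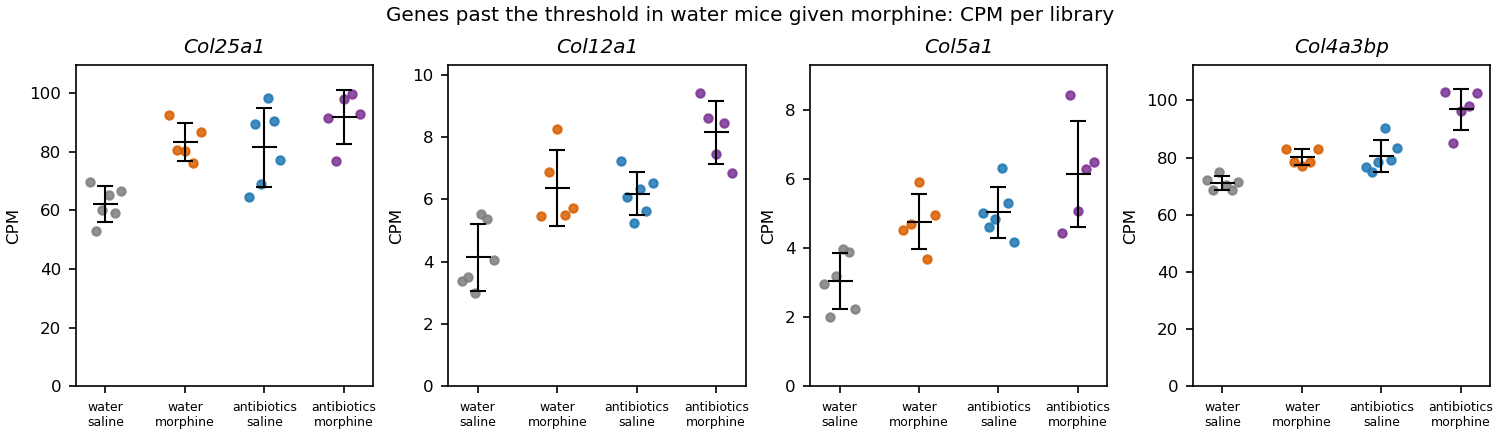
CPM per library of the 4 genes past the threshold with morphine in water mice, with each group's mean and SD (n = 6, 5, 6 and 5). The mean of the water mice given saline is the lowest in each panel (62.3 CPM in Col25a1 and 71.0 CPM in Col4a3bp), and in Col25a1 and Col4a3bp all 6 lie below every water mouse given morphine.

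Col6a2 is a chain of collagen VI, which forms filaments close to cell surfaces. It had 28.7, 34.1, 40.7, 32.1 and 27.6 CPM in antibiotic mice given morphine and 20.1, 19.4, 19.7, 20.2 and 24.5 CPM in water mice given morphine, with no overlap. Col6a2 rose by 0.65 ± 0.16 (adjusted p = 0.00828). The partner chains Col6a1 and Col6a3 changed by 0.34 ± 0.15 (adjusted p = 0.126) and 0.19 ± 0.18 (adjusted p = 0.505), and Col6a1 reached 291 to 364 CPM against 204 to 286 in water mice given morphine, also without overlap. Col14a1, a collagen of fibril surfaces like Col12a1, had 1.27, 2.01, 1.35, 1.55 and 1.44 CPM against 2.63, 2.62, 2.80, 3.77 and 1.99 CPM, and the groups overlap by 1 library of each. Col14a1 fell by 0.85 ± 0.28 (adjusted p = 0.0392), a call lost in 8 of 10 fits that left out 1 library.

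None of the 6 small proteoglycans, fibulins and Sparc passed in any comparison. The closest of those named was Bgn, biglycan, whose level changed by -0.32 ± 0.11 with morphine in antibiotic mice (adjusted p = 0.0594). Sparc, the most abundant member, changed by 0.23 ± 0.27 with morphine in water mice (adjusted p = 0.669) and by -0.05 ± 0.28 between both morphine groups (adjusted p = 0.929). Its wide within-group spread limits what could be seen.

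Col4a3bp, the ceramide transporter, rose in 3 comparisons. It had 103, 85.1, 96.3, 97.9 and 103 CPM in antibiotic mice given morphine, 83.1, 78.5, 77.1, 78.6 and 83.2 CPM in water mice given morphine, 75.0 to 90.2 (median 79.0) in antibiotic mice given saline and 68.5 to 74.9 (median 70.9) in water mice given saline. The highest and the lowest group do not overlap with the water mice given morphine. Col4a3bp rose by 0.28 ± 0.05 between both morphine groups (adjusted p = 0.000799), by 0.27 ± 0.05 with morphine in antibiotic mice (adjusted p = 0.00155) and by 0.17 ± 0.05 with morphine in water mice (adjusted p = 0.0419). The last call was lost in 9 of 11 fits that left out 1 library.

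Other matrix genes around the members moved in both directions between the morphine groups, where 8.42% of all genes were higher and 9.58% lower in antibiotic mice (18.0% in all). Of 19 tested lecticans, link proteins and tenascins, the brain's own matrix, 2 rose and 4 fell in antibiotic mice. Ptprz1, a receptor phosphatase that carries chondroitin sulfate, fell by 0.35 ± 0.06 (adjusted p = 0.000214), and Ncan, neurocan, fell by 0.37 ± 0.07 (adjusted p = 0.00111). Cspg4, a proteoglycan of glial precursors, fell by 0.38 ± 0.07 (adjusted p = 0.000428); 6 of 10 oligodendrocyte precursor markers were lower and none was higher, and the part of those cells in this was not tested. Of 25 tested matrix proteases and inhibitors, 3 rose and 3 fell. Mmp15, a membrane-bound metalloprotease, fell by 0.67 ± 0.12 (adjusted p = 0.000528), and Adamts20, a secreted protease, rose by 0.69 ± 0.14 (adjusted p = 0.00105). Of 25 genes of TGF-beta signalling, whose ligands are known to raise collagen transcription, 3 rose and none fell, led by Thbs1 (0.88 ± 0.24, adjusted p = 0.0143), which encodes thrombospondin 1. The 3 of 25 TGF-beta genes are somewhat above the 8.42% of all genes that were higher and below the 18.0% that passed in either direction.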

How the data were processed

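RNA of the nucleus accumbens was copied to cDNA with the SMARTer kit and sequenced in 22 libraries. The authors deposited raw read counts per gene, aligned with STAR 2.4.0 and handled with FastQC and edgeR, per the submitters' processing notes. The genome build, the annotation and the strand setting of counting do not appear in the labels used here. The table holds 24066 entries, and 5 summary entries (20.6% to 26.4% of a library's counts) were removed. Of 24061 genes, 4053 had a count of 0 everywhere, and 27 names that a spreadsheet turned into dates stayed in the fits but are not named. A deposited table of normalised values was not used.

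Counts were analysed in R 4.3.3 with edgeR 4.0.16: filterByExpr by group (14564 genes), TMM scaling, all 4 groups in 1 model (robust quasi-likelihood), two-sided tests and Benjamini-Hochberg adjustment over all genes tested, with adjusted p under 0.05 as the threshold. The standard error is the size of the log2 change divided by the square root of the F statistic. TMM-scaled counts on genes gave CPM, and a prior count of 2 entered log2 CPM. Transcript length is that of the longest protein-coding GENCODE transcript, matched by symbol for 13888 of the tested genes. Named genes are members past the threshold in any comparison, the 2 most abundant members of each role, up to 3 passing genes per surrounding list and comparison, and members beside the level minimum; 1 member that this rule selects is not reported here and stays only in the fits and counts. The members and the 13 lists (273 genes matched) were chosen with earlier results of these data known. Within groups, 50 pairs of libraries differed by 3.19 to 22.95 times counting noise, so none was the same library read again. This check cannot tell separate preparations of 1 animal from separate animals, and it did not cover pairs across groups. The pipeline was tested on simulated counts. Alternatives were RLE scaling, no filter on low counts, DESeq2 1.42.0, a fit of the compared groups alone, the replicate number as a block, the length slope as a covariate, leaving out the 2 libraries highest in Malat1, and leaving out each library.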

Additional observations from a re-analysis of the deposited data

Results flagged for a closer look

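Single libraries stood apart from their group in 7 of 104 groups of values checked, where chance gives about 1 in 20. They were Agrn in library 1 of the antibiotic mice given morphine (198.9 CPM, the lowest), Col24a1 in library 4 (3.385 CPM), Col4a1 in library 3 (43.36 CPM) and Col6a2 in library 6 (24.49 CPM) of the water mice given morphine, each the highest of its group. That library 4 also had the most cortical and septal neuron markers of its group (2112 CPM, group median 565). It was the highest of its group in Col12a1 (8.268 CPM), Col5a1 (5.924 CPM), Col5a3 (3.19 CPM) and Pcolce2 (3.646 CPM) as well. In Sparc (243.0 CPM) and Col6a1 (203.6 CPM) it was the lowest, and a link was not tested. In water mice given saline, Col3a1 was lowest in library 5 (1.701 CPM) and Hspg2 highest in library 6 (21.79 CPM). Serpinh1 was lowest in library 6 of the antibiotic mice given saline (14.1 CPM), the library with the most Malat1.

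The morphine change differed between antibiotic and water mice, by a test of the difference itself, in Pcolce2 (1.29 on the log2 scale) and Serpinh1 (-0.69). The Serpinh1 call was kept in only 4 of 22 fits that left out 1 library. Both calls were lost with the replicate number as a block.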

How the results depend on the processing

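Of 29 calls of a gene in a comparison, held by 15 genes, none reversed under any alternative and 9 passed under every one. RLE scaling and DESeq2 kept all 29 calls, no filter 26, the compared groups alone 23 of 27, leaving out the 2 libraries highest in Malat1 20, the replicate block 19 and the length slope 15. The 9 are Serpinh1 with morphine in antibiotic mice and, between both morphine groups, Serpinh1, Pcolce2, Hspg2, Plod1, Nid1, Col5a3, Col6a2 and Col4a3bp. Where a count moved, the cause was not tested.

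With morphine in water mice, members passing fell from 4 to 1 with the replicate block (all genes 281) and to 0 with the length slope (all genes 0). With morphine in antibiotic mice they numbered 1 with the length slope (all genes 138), and the compared groups alone gave 1187 genes. The length slope lost the calls of Pcolce2, Plod1, Hspg2, Col5a3, Col24a1, Col3a1 and Col4a3bp in that comparison and kept Serpinh1. With antibiotics under saline, 0 members passed with the compared groups alone (67 genes), the replicate block (105), the length slope (45) or without the 2 libraries highest in Malat1 (70), and DESeq2 called 417 genes. For the difference between both morphine changes, the replicate block left 0 members (10 genes; adjusted p = 0.0513 for Serpinh1 and 0.0515 for Pcolce2) and DESeq2 called 185 genes. Same-numbered libraries of different groups did not always deviate alike: 8 of 25 such pairs correlated over 0.1, from -0.478 to 0.353. Libraries with different numbers also correlated, at 0.667 for library 4 of the water mice given morphine and library 5 of the antibiotic mice given saline. These values therefore cannot decide whether a number stands for a shared batch.

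Leaving out each library gave 2 to 4 members (509 to 880 genes) with morphine in water mice, 7 to 12 (1084 to 2048) with morphine in antibiotic mice, 0 to 4 (48 to 409) with antibiotics under saline, 8 to 14 (1877 to 2748) between both morphine groups and 1 to 2 (28 to 100) for the difference. Depth limits members under 3 CPM, which rest on few counts.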
